A study of Mus musculus with 4 samples.

Results

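The genes described here are 45 members of the DNA replication and S phase machinery of the mouse, from origin licensing to nucleotide supply. They were chosen by name for their roles, with earlier results of these data known. All 45 were found among the 46078 genes of the count table by the identifiers that the authors' RPKM table (reads per length and per depth) pairs with their names. All 45 also reached 1 CPM, a read count divided by library depth, in 1 or more libraries, as did 12348 genes in all. Their counts ran from 216 reads for the least abundant member in its lowest library to 34690 reads for the most abundant in its highest.

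Replication begins in G1, when the origin recognition complex, CDC6 and CDT1 load rings of the MCM helicase onto origins. In S phase CDC45 and the GINS complex turn each ring into an active helicase, polymerases copy the strands behind the sliding clamp PCNA, and chromatin assembly factors place new histones on the daughter strands. Many of these genes are transcribed in late G1 under E2F transcription factors, which the retinoblastoma protein holds back in resting cells.

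The mRNA of MLE-12 cells was sequenced; this is a mouse alveolar epithelial line that was derived from a lung tumour driven by a viral large T antigen, a protein known to bind the retinoblastoma protein. The 4 libraries were Lingo1 KO unscratched, WT unscratched, Lingo1 KO scratched and WT scratched, the scratched cells having been taken 24 hours after a scratch wound. Each group held 1 library, so no difference has a replicate check, and how the knockout was made or whether it is 1 clone is not given in the sources used here. The labels set a knockout of Lingo1, which encodes a transmembrane protein, against WT cells with and without a wound.

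The libraries held 29533746 counts in Lingo1 KO unscratched, 26903429 in WT unscratched, 48333801 in Lingo1 KO scratched and 27907279 in WT scratched cells. Lingo1 mRNA itself stood at 41.2 CPM in KO-labelled and 46.4 CPM in WT unscratched cells, and at 41.4 CPM in KO-labelled and 42.9 CPM in WT scratched cells. The transcript was thus present at similar levels in all 4 libraries, so genotypes are given as labelled and every genotype direction below rests on the labels. Of 10 markers of alveolar type 2 cells, 6 were at or above 1 CPM, among them Sftpb, Sftpc, Abca3 and Nkx2-1, while Sftpa1 and Sftpd had no reads. Of 6 leukocyte markers only Cd68 reached 1 CPM and Ptprc had no reads. Of 5 endothelial markers only Tek reached 1 CPM, at 179 to 219 CPM across the libraries, and Cdh5 had no reads. Of 5 epithelial markers 4 reached 1 CPM, from Epcam at 5.28 to 5.47 CPM to Krt19 at 1140 to 1260 CPM. Krt18 stayed below 1 CPM. Of 7 fibroblast markers Dcn, Col1a1 and Pdgfra reached 1 CPM, and Tcf21 had no reads. Sftpb was at 107 CPM in KO-labelled and 25.4 CPM in WT unscratched cells, and at 93.5 CPM in KO-labelled and 22.9 CPM in WT scratched cells. Col1a1 was at 197 CPM in KO-labelled and 21.3 CPM in WT unscratched cells, and at 177 CPM in KO-labelled and 16.5 CPM in WT scratched cells. Both were higher in the KO-labelled cells by more than any replication gene, as was Sftpc, at ratios of 3.62 and 3.09. Other markers of the same lists differed less or the other way. Abca3 had ratios of 1.06 and 1.06, Etv5 of 1.45 and 1.22, Nkx2-1 of 0.84 and 1.03 and Napsa of 0.87 and 0.615, without and after a scratch. Dcn, the most abundant fibroblast marker, was at 2710 CPM in KO-labelled and 2850 CPM in WT unscratched cells, and at 2480 CPM in KO-labelled and 2820 CPM in WT scratched cells, and Pdgfra had ratios of 1.78 and 1.69. Summed type 2 markers stood at 507.4 CPM in KO-labelled and 410.5 CPM in WT unscratched cells, and at 466.3 CPM in KO-labelled and 361.2 CPM in WT scratched cells. Summed fibroblast markers stood at 2910 CPM in KO-labelled and 2868 CPM in WT unscratched cells, and at 2660 CPM in KO-labelled and 2837 CPM in WT scratched cells. The part of these markers in the results was not tested. Mitochondrial genes took 0.721% of the counts in KO-labelled and 1.03% in WT unscratched cells, and 0.828% in KO-labelled and 0.711% in WT scratched cells.

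Replication genes were abundant, and subunits of 1 complex differed in level. On the authors' RPKM scale, averaged over the 4 libraries, the members spanned 3.58 for Fen1 to 219 for Mcm2, with a median of 58.4. The 6 subunits of the MCM2-7 ring lay within 1.89-fold of each other, between 116 for Mcm3 and 219 for Mcm2. Pcna stood at 213, whereas the subunits of its loader ran from 31.7 for Rfc2 to 71.5 for Rfc4. GINS subunits were spread more widely, with Gins3 at 14.7 and Gins4 at 67.1. Orc1, the subunit of the origin complex that is known to be cell cycle regulated, averaged 11.5 and Orc6 59.9. The S phase cyclins were among the lowest members, at 4.72 for Ccne1 and 16.2 for Ccne2. Fen1, the flap nuclease of Okazaki fragments, has 84.2% of its exon bases over exons of Tmem258 and Gm10143 on the other strand, and since the strand setting of the counting is not given in the sources used here, its level is uncertain. The same holds for Gins2, with 67.3% of its exon bases over Gse1, and Chaf1a, with 52.5% over Ubxn6.

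**Figure D1:**
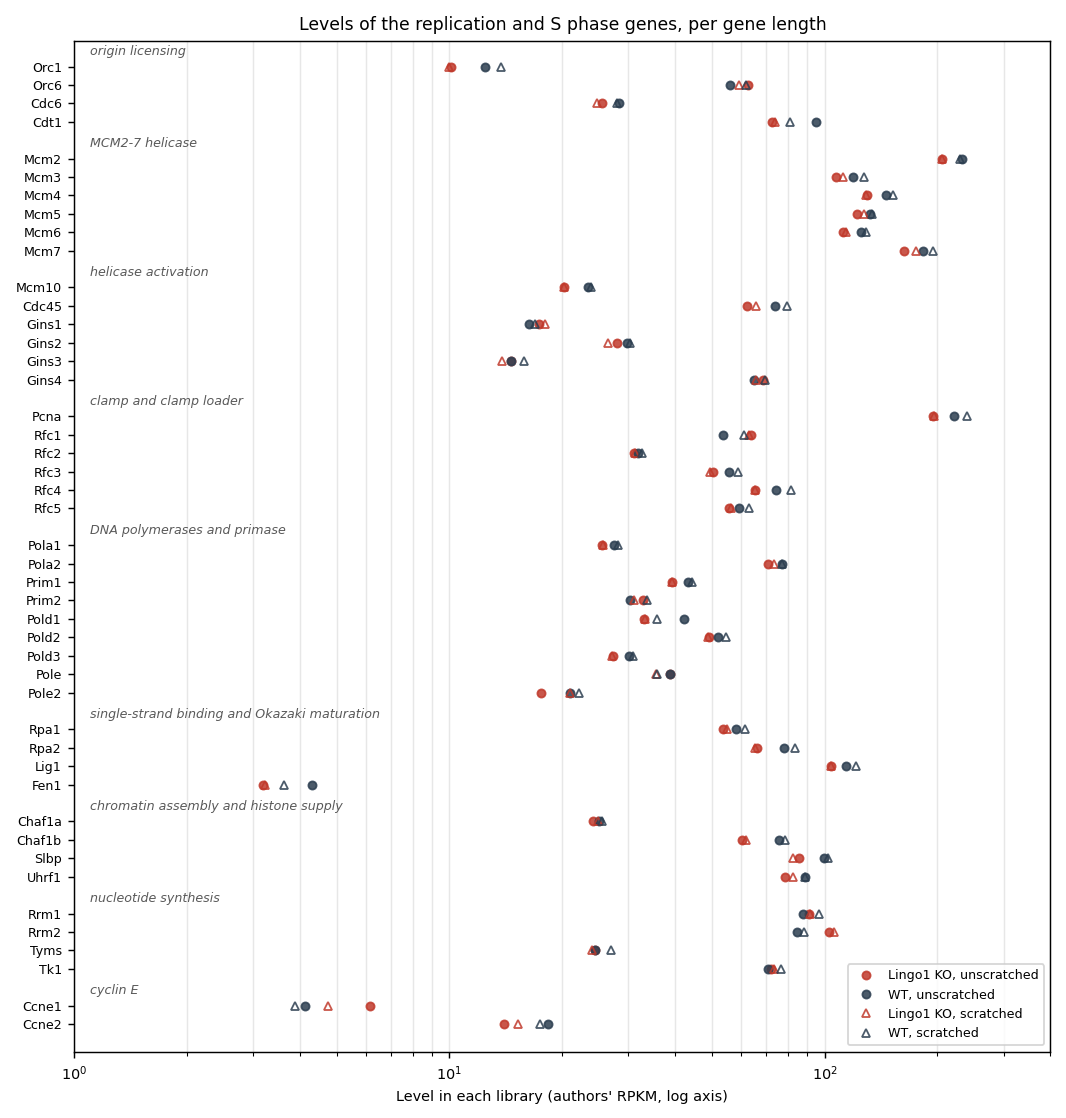
Level of each member in each library on the authors' RPKM scale (log axis), grouped by role; red marks KO-labelled and dark blue WT libraries, circles unscratched and triangles scratched cells. MCM2-7 subunits and Pcna lie above 100 RPKM. The CPM scale used for the comparisons is not drawn here. On it both KO-labelled libraries were below both WT libraries for 31 of the 45 members, against 27.6% of all tested genes.

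Most replication genes were slightly lower in the KO-labelled cells, both without and after a scratch. The summed level of the 45 members was 8833.1 CPM in KO-labelled and 9532.7 CPM in WT unscratched cells, a ratio of 0.927 (95% counting interval 0.922 to 0.932). After the scratch it was 8969 CPM in KO-labelled and 9901.5 CPM in WT cells, a ratio of 0.906 (0.901 to 0.91). In these bulk libraries, fewer cells in S phase and less of each mRNA per cell cannot be told apart. The median log2 difference between KO-labelled and WT cells was -0.14 over the members and 0.01 over all tested genes without a scratch. After the scratch it was -0.15 over the members and 0.00 over all tested genes. The ranges of the members were -0.43 to 0.58 without and -0.46 to 0.30 after a scratch, so no member was 2-fold lower.

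The 2 genotype comparisons share no library, and 33 of the 45 members were below 0 in both (73.3%), against 35.4% of all tested genes. Both KO-labelled libraries were below both WT libraries for 31 members, against 27.6% of all tested genes, and above both for 4 members, against 28.6%. The counting interval of the ratio lay below 1 for 31 members without a scratch, where 24.1% of all tested genes did so, and for 36 members after it, where 23.6% did. It lay above 1 for 7 members without a scratch (26.8% of all tested genes) and for 3 after it (24%). In both comparisons it lay below 1 for 28 members (62.2%), against 14.6% of all tested genes, and above 1 for 3, against 16.4%. Since intervals are narrower for abundant genes, the same was read over the 5058 genes that average at least 50 CPM, a limit chosen after seeing the data. In both comparisons, 26 of the 38 members among them (68.4%) had intervals below 1, against 22.5% of these genes.

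Few members differed by 1.2-fold, a minimum set with small differences of the members known from earlier results of these data. By the rule of at least 1.2-fold with an interval that excludes 1, 6 members were lower and 2 higher without a scratch, where 10.3% of all tested genes were lower and 11.7% higher. After the scratch 7 members were lower and 2 higher, against 7.52% and 9.6% of all tested genes. The 6 are 13.3% of the members, near the share among all genes, and the 7 are 15.6%, above it. Lower by this rule in both comparisons were Orc1 and Chaf1b, where 4.17% of all tested genes were, and higher in both were Rrm2 and Ccne1, where 6.09% were.

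**Figure D2:**
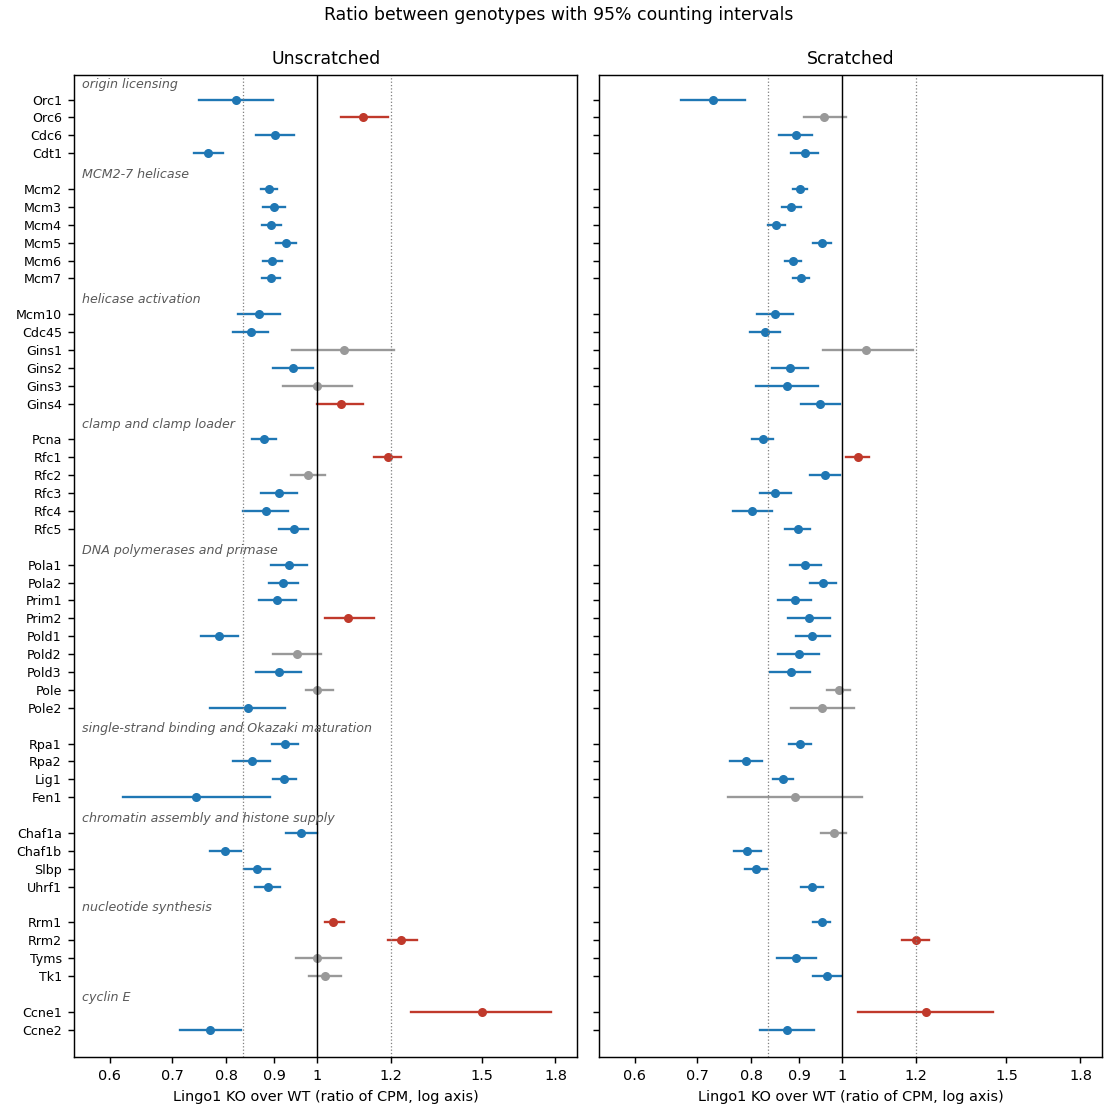
Ratio of CPM in KO-labelled over WT cells for each member, unscratched (left) and scratched (right), with exact 95% counting intervals (log axis); blue and red mark intervals wholly below and wholly above 1, grey those that include 1, and dotted lines 1.2-fold. The MCM2-7 subunits lie between 0.85 and 0.953 in both panels, whereas Rrm2 and Ccne1 lie at or above 1.2.

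An additive model of genotype and scratch, fitted over all 4 libraries with edgeR's quasi-likelihood test, gave the genotype difference over both conditions. In it 19 members fell and 2 rose in the KO-labelled libraries after Benjamini-Hochberg adjustment over all tested genes, where 12.2% of all tested genes fell and 13.8% rose. The 19 (42.2% of the members) fell by 0.16 to 0.38 on the log2 scale. The median over the 45 members was -0.15, against 0.00 over all tested genes. The fit has 1 residual degree of freedom and no replicate cultures, so its p-values compare these libraries. With DESeq2 in its place, 8 of the 19 passed, where 3.3% of all tested genes fell, and these were Orc1, Cdt1, Mcm4, Cdc45, Pcna, Rpa2, Chaf1b and Slbp. Of the 2 that rose, Rrm2 passed with DESeq2 and Ccne1 did not. With limma-voom 21 members fell, all 19 among them.

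Origin licensing genes were lower with 1 exception. Orc1 (chromosome 4, 108579423 to 108614833, mm10) was at 30.4 CPM in KO-labelled and 37.1 CPM in WT unscratched cells, and at 30.2 CPM in KO-labelled and 41.4 CPM in WT scratched cells. Both KO-labelled libraries lay below both WT libraries, at ratios of 0.819 (0.747 to 0.897) without and 0.728 (0.673 to 0.787) after a scratch. Orc1 fell by 0.38 ± 0.07 (SE) on the log2 scale, with an adjusted p of 0.000264 by edgeR's quasi-likelihood test. Cdt1 (chromosome 8, 122568015 to 122573554), the licensing factor that geminin inhibits, was at 195 CPM in KO-labelled and 254 CPM in WT unscratched cells, and at 199 CPM in KO-labelled and 219 CPM in WT scratched cells. Its ratio was 0.765 (0.739 to 0.793) without and 0.912 (0.883 to 0.942) after a scratch, and it fell by 0.26 ± 0.06 in the additive fit. The WT unscratched library stood above the other three for Cdt1, so its lower ratio without a scratch rests on that library. Cdc6, the ATPase that works with ORC in loading, was at 0.902 times (0.861 to 0.945) and 0.892 times (0.856 to 0.93) its WT level and fell by 0.16 ± 0.06. Orc6 was at 1.12 times its WT level without a scratch (1.06 to 1.19) and at 0.957 times after it (0.911 to 1.01), and did not pass.

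All 6 subunits of the MCM2-7 helicase ring were lower in the KO-labelled cells by about the same factor. Their ratios lay between 0.889 and 0.926 without a scratch and between 0.85 and 0.953 after it, and each of the 12 intervals lay below 1. Among all genes that average at least 50 CPM, 31.6% had intervals below 1 without a scratch and 33.5% after it. By the 1.2-fold rule 0 of the 6 subunits were lower in either comparison. Mcm4 (chromosome 16, 15623897 to 15637400) was at 466 CPM in KO-labelled and 522 CPM in WT unscratched cells, and at 464 CPM in KO-labelled and 545 CPM in WT scratched cells. Mcm2 (chromosome 6, 88883474 to 88898780) was at 719 CPM in KO-labelled and 809 CPM in WT unscratched cells, and at 724 CPM in KO-labelled and 803 CPM in WT scratched cells. Both genes were lower in both KO-labelled libraries than in either WT library, with little difference between unscratched and scratched cells. Mcm4, Mcm6 and Mcm3 fell in the additive fit, by 0.20 ± 0.06, 0.17 ± 0.06 and 0.17 ± 0.06 on the log2 scale. Mcm2, at -0.16 ± 0.06 (adjusted p = 0.0568), Mcm7, at -0.16 ± 0.06 (adjusted p = 0.0519), and Mcm5, at -0.09 ± 0.06 (adjusted p = 0.257), did not pass edgeR's quasi-likelihood test. Summed over the ring, the level was 2931 CPM in KO-labelled and 3264.4 CPM in WT unscratched cells (ratio 0.898, 0.89 to 0.906), and 3022.8 CPM in KO-labelled and 3375.6 CPM in WT scratched cells (ratio 0.895, 0.888 to 0.903). Mcm7 carries the microRNA genes Mir25 and Mir93 within it and overlaps exons of Ap4m1 and Cops6, so its count may hold reads of these.

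Promoters of 4 of the MCM2-7 genes share letters that E2F proteins are known to bind. RefSeq promoters (250 bases before to 50 after a start, GRCm38.p6, the assembly of mm10) were found for 37 of the 45 members, as 43 windows. The E2F motif was searched on both strands as TTTGGCGC, TTTCCCGC, TTTCGCGC or TTTGCCGC. It was present in 15 of the 43 windows (34.9%), against 2.26% of all 32851 promoters of the same length and 3.12% of the windows of G2 and M phase genes. The set of all promoters covers 27025 genes and was not limited to those that reached 1 CPM, as the members did. Median GC content was 61.3% in the members' windows, 52.7% in all promoters and 59% in the G2 and M phase windows. The part of GC content in these shares was not tested. Among the 5 MCM2-7 genes with a window, 4 held it, and 2 to 3 matches stood in each of the windows of Mcm3, Mcm5, Mcm6 and Mcm7 shown here. By direction in the additive fit, 9 of the 17 genes that fell and have a window held a match, 6 of the 18 that did not pass, and neither of the 2 that rose. The CHR element of mitotic genes (TTTGAA, both strands) was in 11.6% of the members' windows, 75% of the 32 windows of G2 and M phase genes and 17.9% of all promoters. The CCAAT box (CCAAT, both strands) was in 58.1%, 75% and 37.4% of the same sets. A match is a description of these letters, and binding was not measured. The helicase windows shown were picked for holding 2 or more matches, and the windows of Mcm2 and a further window of Mcm7 held 0. Those of Orc1, lower in both comparisons, and Rrm2, higher in both, are shown beside them. Chaf1b, Pcna, Rpa2, Slbp, Rfc4, Cdc45, Mcm10 and Prim1 fell and had 0 matches in their windows. A link between matches and direction was not tested. Capitals mark E2F matches, and in Mcm5 and Mcm6 a pair of matches on opposite strands overlaps.
Mcm3 (chr1:20820263-20820562, minus strand): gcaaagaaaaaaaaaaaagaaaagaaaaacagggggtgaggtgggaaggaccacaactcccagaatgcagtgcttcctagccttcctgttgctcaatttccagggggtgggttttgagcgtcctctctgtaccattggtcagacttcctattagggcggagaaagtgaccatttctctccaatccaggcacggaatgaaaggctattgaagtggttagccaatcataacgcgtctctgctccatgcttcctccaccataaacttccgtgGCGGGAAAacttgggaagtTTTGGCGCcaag
Mcm5 (chr8:75109259-75109558, plus strand): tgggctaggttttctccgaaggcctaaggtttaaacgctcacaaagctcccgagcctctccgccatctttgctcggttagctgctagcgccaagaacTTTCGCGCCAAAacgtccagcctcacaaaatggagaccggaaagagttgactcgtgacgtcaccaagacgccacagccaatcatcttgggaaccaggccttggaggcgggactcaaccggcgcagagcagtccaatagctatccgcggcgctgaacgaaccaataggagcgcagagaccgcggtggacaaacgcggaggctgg
Mcm6 (chr1:128359656-128359955, minus strand): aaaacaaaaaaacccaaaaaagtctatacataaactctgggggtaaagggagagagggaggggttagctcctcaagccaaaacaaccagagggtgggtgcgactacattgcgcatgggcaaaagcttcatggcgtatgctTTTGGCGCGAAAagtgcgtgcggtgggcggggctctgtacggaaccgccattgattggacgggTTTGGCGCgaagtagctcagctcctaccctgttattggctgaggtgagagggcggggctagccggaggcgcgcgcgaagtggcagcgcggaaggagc
Mcm7 (chr5:138171834-138172133, minus strand): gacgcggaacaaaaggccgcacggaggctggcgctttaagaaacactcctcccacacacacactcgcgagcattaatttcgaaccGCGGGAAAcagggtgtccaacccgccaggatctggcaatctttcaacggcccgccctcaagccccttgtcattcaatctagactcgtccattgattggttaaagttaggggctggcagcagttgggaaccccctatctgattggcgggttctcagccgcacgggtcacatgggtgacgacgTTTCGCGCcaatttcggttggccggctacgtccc
Orc1 (chr4:108579204-108579503, plus strand): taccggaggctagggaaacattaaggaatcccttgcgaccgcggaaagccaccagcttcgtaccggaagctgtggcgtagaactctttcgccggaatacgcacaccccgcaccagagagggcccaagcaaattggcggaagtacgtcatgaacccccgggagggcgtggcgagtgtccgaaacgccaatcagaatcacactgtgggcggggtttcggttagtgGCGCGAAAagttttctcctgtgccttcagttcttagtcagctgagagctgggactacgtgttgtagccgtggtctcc
Rrm2 (chr12:24708004-24708303, plus strand): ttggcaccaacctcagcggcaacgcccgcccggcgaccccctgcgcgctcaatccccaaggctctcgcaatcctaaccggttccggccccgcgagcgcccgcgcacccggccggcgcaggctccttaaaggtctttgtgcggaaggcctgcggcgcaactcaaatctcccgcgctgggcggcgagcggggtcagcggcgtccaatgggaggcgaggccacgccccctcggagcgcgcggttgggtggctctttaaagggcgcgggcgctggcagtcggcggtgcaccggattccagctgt

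Of the factors that activate the helicase, Cdc45 and Mcm10 fell and the GINS genes did not pass. Cdc45 (chromosome 16, 18780447 to 18811987), which joins the ring to form the active helicase, was at 133 CPM in KO-labelled and 157 CPM in WT unscratched cells, and at 141 CPM in KO-labelled and 171 CPM in WT scratched cells. Its ratios were 0.849 (0.813 to 0.887) and 0.827 (0.797 to 0.859), and it fell by 0.26 ± 0.06 on the log2 scale. Mcm10, an initiation factor that is no subunit of the ring, fell by 0.22 ± 0.06, with ratios of 0.867 and 0.848. The KO-labelled libraries lay below the WT libraries for both genes in each condition. Gins1 was at 1.07 times (0.941 to 1.21) and 1.06 times (0.954 to 1.19) its WT level, Gins3 at 1 times (0.919 to 1.09) and 0.873 times (0.809 to 0.943). Gins4 was above its WT level without a scratch, at 1.06 times, and below it after a scratch, at 0.948 times (0.903 to 0.996). Gins2 was below it in both, at 0.943 and 0.88 times.

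The sliding clamp gene and 2 loader subunit genes fell, while the large loader subunit gene did not. Pcna (chromosome 2, 132249162 to 132253314), the clamp that holds polymerases on DNA, was at 294 CPM in KO-labelled and 335 CPM in WT unscratched cells, and at 298 CPM in KO-labelled and 362 CPM in WT scratched cells. It fell by 0.24 ± 0.06 on the log2 scale (adjusted p = 0.00294, edgeR's quasi-likelihood test), and its ratio after the scratch, 0.823 (0.802 to 0.844), passed 1.2-fold. Its 2 annotated pseudogenes make its count somewhat uncertain. Rfc4 was at 83.4 CPM in KO-labelled and 94.6 CPM in WT unscratched cells, and at 83.6 CPM in KO-labelled and 104 CPM in WT scratched cells, and fell by 0.25 ± 0.06. Rfc3 fell by 0.19 ± 0.06, whereas Rfc5, at -0.12 ± 0.06, and Rfc2, at -0.04 ± 0.06, did not pass. Rfc1, the large subunit, was at 302 CPM in KO-labelled and 254 CPM in WT unscratched cells, and at 300 CPM in KO-labelled and 289 CPM in WT scratched cells. Here the WT unscratched library stood below the other three, with ratios of 1.19 (1.15 to 1.23) without and 1.04 (1.01 to 1.07) after a scratch.

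Of the polymerase and primase genes, 3 fell, where 12.2% of all tested genes did. All 9 had a negative additive difference, from -0.22 for Pold1 to -0.002 for Pole, against 49.2% of all tested genes. Among the 9, Prim2, at -0.004, and Pole hardly differed between genotypes in this fit. Pold1, the catalytic subunit of polymerase delta, was at 116 CPM in KO-labelled and 147 CPM in WT unscratched cells, and at 117 CPM in KO-labelled and 125 CPM in WT scratched cells. As with Cdt1, the WT unscratched library stood above the other three, and the ratio was 0.786 (0.751 to 0.823) without and 0.93 (0.892 to 0.971) after a scratch. Pold3, an accessory subunit of polymerase delta, and Prim1, the catalytic primase subunit, each fell by 0.16 on the log2 scale. Pole, the catalytic subunit of the leading strand polymerase, was at 276 CPM in KO-labelled and 275 CPM in WT unscratched cells, and at 255 CPM in KO-labelled and 257 CPM in WT scratched cells. Its genotype ratios of 1 (0.973 to 1.04) and 0.993 (0.965 to 1.02) had intervals that include 1. Prim2, the regulatory primase subunit, was at 1.08 times its WT level without and 0.922 times after a scratch. Pola1 and Pola2, of polymerase alpha, had ratios between 0.914 and 0.954 and did not pass.

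Among the genes for single-stranded DNA and Okazaki fragments, Rpa2 and Lig1 fell. Rpa2 (chromosome 4, 132768332 to 132778752), a subunit of the protein that coats single-stranded DNA, was at 120 CPM in KO-labelled and 141 CPM in WT unscratched cells, and at 119 CPM in KO-labelled and 151 CPM in WT scratched cells. Its ratios were 0.851 (0.813 to 0.891) and 0.789 (0.758 to 0.821), and it fell by 0.29 ± 0.06 on the log2 scale. Lig1, the ligase that seals Okazaki fragments, fell by 0.16 ± 0.06, while Rpa1, at -0.13 ± 0.06, did not pass. Fen1 was at 7.54 CPM in KO-labelled and 10.1 CPM in WT unscratched cells, and at 7.66 CPM in KO-labelled and 8.6 CPM in WT scratched cells, with an additive difference of -0.29 ± 0.11 (adjusted p = 0.0519, edgeR's quasi-likelihood test).

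The chromatin group held the member with the lowest adjusted p. Chaf1b (chromosome 16, 93883901 to 93906115), a subunit of the chromatin assembly factor that works with PCNA, was at 170 CPM in KO-labelled and 213 CPM in WT unscratched cells, and at 176 CPM in KO-labelled and 222 CPM in WT scratched cells. Its ratios were 0.798 (0.768 to 0.829) and 0.792 (0.767 to 0.819), nearly equal in the 2 conditions, and it fell by 0.33 ± 0.06 on the log2 scale (adjusted p = 9.4e-05, edgeR's quasi-likelihood test). Its partner subunit Chaf1a, whose count is uncertain, was at 0.962 times (0.926 to 0.999) and 0.981 times (0.949 to 1.01) its WT level. Slbp, which binds the stem-loop of histone mRNAs, was at 249 CPM in KO-labelled and 289 CPM in WT unscratched cells, and at 242 CPM in KO-labelled and 299 CPM in WT scratched cells. It fell by 0.26 ± 0.06. Uhrf1, which guides maintenance of DNA methylation, was at 0.886 and 0.929 times its WT level and did not pass (adjusted p = 0.0701).

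Of the nucleotide synthesis genes, Rrm2 was higher in both comparisons, and the other three had intervals below 1 only after the scratch. Rrm2 (chromosome 12, 24708241 to 24714146), the S phase subunit of ribonucleotide reductase, was at 227 CPM in KO-labelled and 184 CPM in WT unscratched cells, and at 233 CPM in KO-labelled and 194 CPM in WT scratched cells. Both KO-labelled libraries stood above both WT libraries, at ratios of 1.23 (1.19 to 1.28) and 1.2 (1.16 to 1.24), and Rrm2 rose by 0.28 ± 0.06 on the log2 scale (adjusted p = 0.000552, edgeR's quasi-likelihood test). Rrm1, the large subunit of the same enzyme, was at 1.04 times (1.02 to 1.07) and 0.952 times (0.932 to 0.972) its WT level. Thymidylate synthase (Tyms) was at 1 times (0.95 to 1.06) and 0.894 times (0.853 to 0.937), and thymidine kinase (Tk1) at 1.02 times (0.98 to 1.06) and 0.964 times (0.931 to 0.997). Summed over the 4 genes, the ratio was 1.07 (1.05 to 1.09) without and 0.995 (0.981 to 1.01) after a scratch.

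The 2 E-type cyclins, which activate CDK2 at the entry to S phase, differed in opposite directions. Ccne1 (chromosome 7, 38097984 to 38107534) was at 12.3 CPM in KO-labelled and 8.19 CPM in WT unscratched cells, and at 9.52 CPM in KO-labelled and 7.74 CPM in WT scratched cells. Ccne2 (chromosome 4, 11191351 to 11204779) was at 42.1 CPM in KO-labelled and 54.8 CPM in WT unscratched cells, and at 45.8 CPM in KO-labelled and 52.4 CPM in WT scratched cells. Neither gene's KO-labelled and WT libraries overlapped, Ccne1 being higher and Ccne2 lower in the KO-labelled cells. Ccne1 rose by 0.44 ± 0.11 on the log2 scale (adjusted p = 0.00345) and Ccne2 fell by 0.28 ± 0.06 (adjusted p = 0.000806, edgeR's quasi-likelihood test). Neither passed with DESeq2, where the adjusted p was 0.283 for Ccne1 and 0.0993 for Ccne2. As Ccne1 was the less abundant, the 2 together stood at 0.864 times (0.807 to 0.925) and 0.919 times (0.865 to 0.978) their WT level.

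Few replication genes differed between scratched and unscratched cells. In WT cells 0 members were at least 1.2-fold higher or lower after the scratch, where 4.16% of all tested genes were higher and 5.28% lower. In KO-labelled cells 1 was higher and 1 lower, against 2.23% and 3.28%. The higher one was Pole2, at 35.9 CPM in scratched and 29.9 CPM in unscratched KO-labelled cells (ratio 1.2, 1.11 to 1.3). Pole2 lies at the limit and was not called with total counts, with DESeq2 size factors, or with the trend on length and GC content or on expression removed. The lower one was Ccne1, at 9.52 CPM in scratched and 12.3 CPM in unscratched KO-labelled cells (ratio 0.776, 0.675 to 0.893). No member was called in both genotypes, where 0.648% of all tested genes were higher in both and 0.648% lower in both. By the quasi-likelihood test of edgeR, the additive fit had 0 members that rose and 0 that fell with the scratch, where 1.47% of all tested genes rose and 1.44% fell. At an unadjusted p of 0.05 the counts were 1 and 1, against 8.92% and 7.26% of all tested genes. DESeq2 also called 0 and 0 members, where it called 0.154% and 0.138% of all tested genes, as did limma-voom, where it called 1.28% and 1.24%.

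The members' median log2 difference was 0.06 between scratched and unscratched WT cells and 0.01 in KO-labelled cells, against 0.02 and 0.01 over all tested genes. With the trend on gene length and GC content removed, the median in WT cells was 0.009. In WT cells the interval lay above 1 for 24 members (22.3% of all tested genes) and below 1 for 3 (14.9%), and in KO-labelled cells for 11 (18.2%) and 4 (13.9%). Among the genes that average at least 50 CPM, it lay above 1 in WT cells for 23 of the 38 members (60.5%) and for 36.3% of all such genes, with medians of 0.07 and 0.03. Of the lists described below, 80.6% of the G2 and M phase genes had intervals above 1 in WT cells. So did 57.1% of the S phase repair, nucleotide and chromatin genes, 46.9% of further replication genes and 26.7% of G1/S regulators. Both genotypes had intervals above 1 for 5 members (8.78% of all tested genes) and below 1 for 1 member, Pole (4.92%). The 3 lower in scratched WT cells were Cdt1, Pold1 and Pole, and the first 2 were at 1.02 times and 1.01 times in KO-labelled cells. The difference of the 2 scratch responses reached 1.2-fold for 0 members in either direction, where 4.2% of all tested genes were higher and 3.3% lower in the KO-labelled cells. Its interval lay below 1 for 17 members (37.8%), against 14.9% of all tested genes, and above 1 for 5 (11.1%), against 11.6%. Among the genes that average at least 50 CPM, it lay below 1 for 16 of the 38 members (42.1%), against 24.9%, and above 1 for 3, against 16.3%. Intervals below 1 were also held by 66.7% of the G2 and M phase genes. The S phase repair, nucleotide and chromatin genes had 42.9%, further replication genes 21.9% and G1/S regulators 13.3%. The members' median log2 value was -0.037, against -0.013 over all tested genes, and -0.01 with the length and GC trend removed. The WT unscratched library enters both the WT scratch response and the unscratched genotype comparison. The genotype values after the scratch do not use it.

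**Figure D3:**
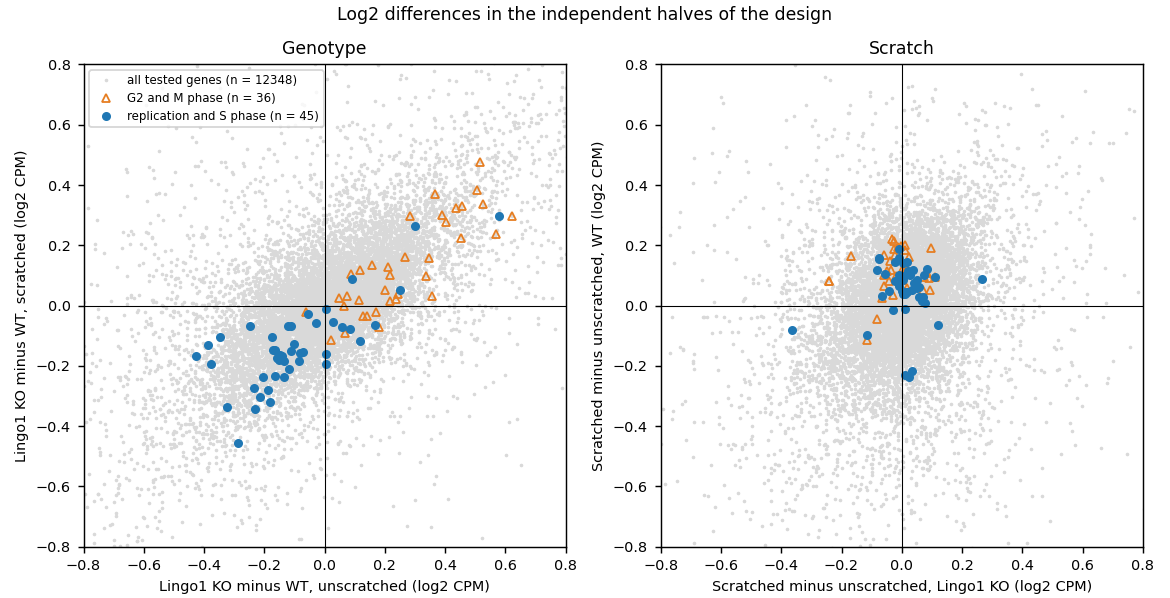
Log2 differences in CPM of the members (blue), G2 and M phase genes (orange) and all tested genes (grey), by genotype (left, unscratched against scratched cells) and by scratch (right, KO-labelled against WT cells); the 2 axes of each panel share no library, and 594 and 233 genes outside the axes are not drawn. By genotype 33 of the 45 members lie below 0 on both axes (73.3%, against 35.4% of all tested genes). Above 0 on both by genotype lie 28 of the 36 G2 and M phase genes (77.8%, against 37.4% of all tested genes). By scratch 25 members (55.6%) and 15 G2 and M phase genes (41.7%) lie above 0 on both, against 34.4% of all tested genes.

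Other genes of S phase leaned the same way to a smaller extent. Of 32 further genes of the replication machinery, 8 fell and 1 rose in KO-labelled cells in the additive fit, where 12.2% and 13.8% of all tested genes did, with medians of -0.05 without and -0.08 after a scratch. Donson, a helicase assembly factor, fell by 0.34 ± 0.05 on the log2 scale, Cdc7, the kinase that fires origins, by 0.29 ± 0.05, and Gmnn, which encodes the CDT1 inhibitor geminin, by 0.22 ± 0.06. Top1, the topoisomerase that relaxes DNA ahead of forks, rose by 0.47 ± 0.05. Of 28 repair, nucleotide and chromatin genes of S phase, 7 fell and 2 rose, with medians of -0.02 and -0.13. Bard1, the partner of BRCA1, fell by 0.24 ± 0.07 and Hells, a chromatin remodeller, by 0.21 ± 0.06. The dNTP hydrolase Samhd1 rose by 0.36 ± 0.06.

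Regulators of the G1 to S transition had members that fell and members that rose. Of 30 such genes, 4 (13.3%) rose and 9 (30%) fell in the KO-labelled libraries, against 13.8% and 12.2% of all tested genes, with medians of -0.01 and -0.01. Cdk6 and Ccnd2, a kinase and a cyclin that act on the retinoblastoma protein, rose by 1.05 ± 0.10 and 0.73 ± 0.06 on the log2 scale, and the CDK inhibitor Cdkn1a by 0.66 ± 0.12. Cdk6 was at 18.8 CPM in KO-labelled and 9.04 CPM in WT unscratched cells, and at 20 CPM in KO-labelled and 9.68 CPM in WT scratched cells. The transcription factor gene E2f2 fell by 0.46 ± 0.06, and the CDK inhibitors Cdkn2c and Cdkn1b by 0.32 ± 0.06 and 0.31 ± 0.06.

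Genes of G2 and M phase went the other way. Of 36 such genes, 18 rose and 0 fell in KO-labelled cells (edgeR, additive fit), against 13.8% and 12.2% of all tested genes. At an unadjusted p of 0.05, 22 were higher and 0 lower, against 19.1% and 17.3% of all tested genes. The list had medians of 0.23 without and 0.10 after a scratch. Ube2c, the ubiquitin-conjugating enzyme of the anaphase-promoting complex, rose by 0.50 ± 0.06 on the log2 scale and the centromere protein gene Cenpf by 0.46 ± 0.07. Both KO-labelled libraries stood above both WT libraries for 26 of the 36 and below both for 0, against 28.6% and 27.6% of all tested genes. For the 45 replication genes these numbers were 4 and 31. The contrast between the 2 lists was not tested.

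**Figure D4:**
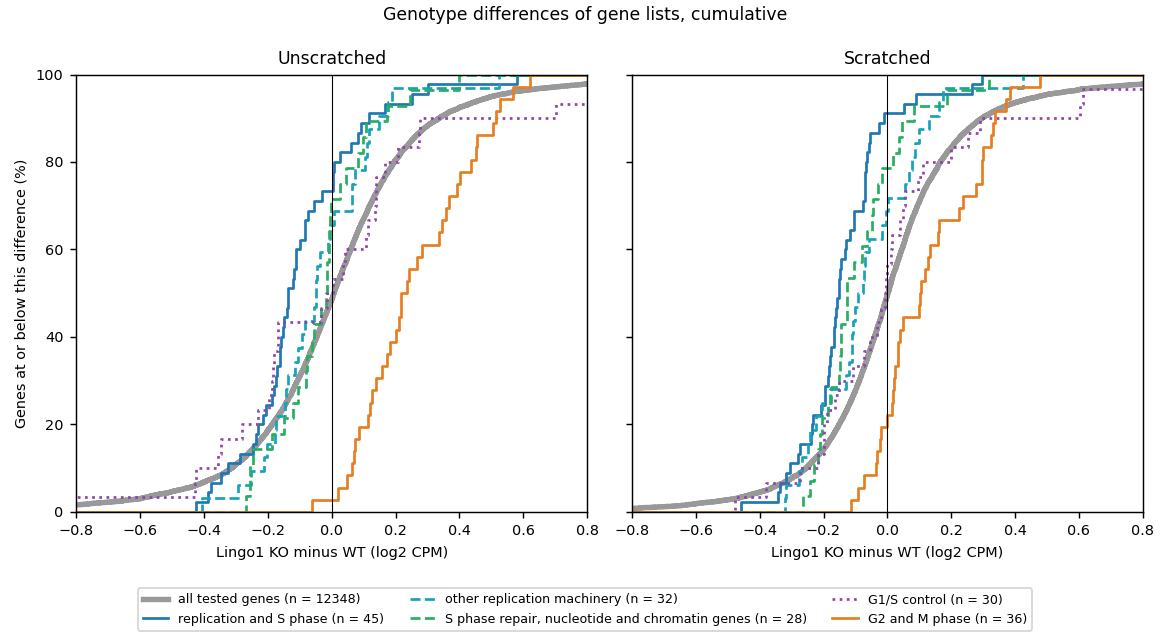
Share of the genes of each list (vertical axis, %) at or below a given log2 difference between KO-labelled and WT cells (horizontal axis), without (left) and after (right) a scratch. The line of the replication and S phase genes crosses its midpoint at -0.14 and -0.15, to the left of all tested genes, and that of G2 and M phase genes at 0.23 and 0.10, to the right.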

How the data were processed

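The members, all gene lists and the 1.2-fold minimum were chosen with earlier results of these data known. The authors deposited raw read counts for 46078 genes and RPKM values for 14844 genes, 161 of them empty. Per the submitters' processing notes, the build was mm10 and the tools were HTSeq 0.11.3, STAR 2.7.9a, edgeR 3.32.1 and Trimmomatic 0.39, with no role stated for any. For the counting, neither annotation release nor strand setting is given in the sources used here. The libraries were strand-specific, per the labels' protocols. Column names give the genotype and a letter for the scratch; the other letter was read as unscratched, and every scratch statement rests on that reading.

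All ratios came from the deposited counts, scaled with TMM factors and given as CPM. Exact 95% Clopper-Pearson intervals on the split of the counts, and the floor of 3 counts (0.0626 to 0.111 CPM), cover counting error only. Reads carry no molecular identifiers. Medians used a prior count of 2. The additive model (edgeR 4.0.16, R 4.3.3, adjusted p of at most 0.05) had a biological coefficient of variation of 5.49% and 25.4 prior degrees of freedom. That spread comes from how far the genotype difference varied between unscratched and scratched libraries, not from replicate cultures. "Rose" and "fell" are used for genes that passed it. The functions were tested on simulated data. Members with full values were those past the 1.2-fold rule or the additive test and reference points of each group. Of the other lists at most 6 genes that passed were named, in order of size. Positions came from GENCODE M21 and promoters from RefSeq. Alternatives covered scaling, filters, the fold needed, the authors' RPKM values (pseudocount 0.1), trends with length, GC content and expression, DESeq2 1.42.0 and limma 3.58.1. Figures were drawn with matplotlib 3.10.9.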

Additional observations from a re-analysis of the deposited data

How the results depend on the processing

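With total counts, DESeq2 size factors, the authors' RPKM values, other filters and prior counts, length and GC or expression trends removed, or without the 3 members mostly covered by other genes (an alternative chosen after seeing the data), the members' genotype medians stayed between -0.14 and -0.17 on the log2 scale. The additive fit called 19 to 22 members lower with other filters, scalings or limma-voom, but DESeq2 called 8 lower and 1 higher. A minimum of 1.1-fold gave 21 lower and 4 higher members without a scratch and 25 lower and 2 higher after it. A minimum of 1.5-fold gave 0 and 0 in both. Shares of all tested genes at 1.1-fold and 1.5-fold were not computed. The counts at these minima, here and below, thus describe the members only. Rrm2 lies at the limit after the scratch, so total counts (1.19) and DESeq2 size factors left 1 higher member there. After the scratch in WT cells, 1.1-fold gave 7 higher and 2 lower members and removal of the length and GC trend 1 lower. The WT median was 0.009 under that removal, against 0.064. In KO-labelled cells the higher member, Pole2, was lost, leaving 0, with total counts, DESeq2 size factors, 1.5-fold and either trend removed, and the lower one with 1.5-fold, leaving 0. Their median turned to -0.004 with total counts and to -0.003 without the length and GC trend. For the difference of the scratch responses, 1.1-fold gave 4 higher and 6 lower members and removal of the expression trend 1 higher. Pold1 without a scratch weakened to 0.87 once the length and GC trend was removed. The causes were not tested, apart from the changed minimum. No paired analysis was possible because each group has 1 library. With 1 library a group, variation between cultures could not be measured.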
